A study of Rattus norvegicus with 9 samples.

Results

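The RNAs described here are the small noncoding RNAs that make up the cell's RNA-processing machines: the spliceosomal RNAs U1, U2, U4, U5 and U6, the minor spliceosomal RNAs U11, U12, U4atac and U6atac, U7, U3 and U8, the small Cajal body RNAs (gene names starting with SCARNA), 7SK, the Y RNAs, the RNA of the signal recognition particle (annotated as Metazoa_SRP) and 5S ribosomal RNA. A member was a gene of one of these names at one assembled locus of the deposited rat annotation. Transcripts of the same name in a locus were summed, so a member can hold more than 1 copy. Of 1553 such genes, 465 were above 0 TPM (a length-scaled share of a library's transcripts) in at least 3 of 9 libraries and were kept, among 22654 genes of the whole series that passed the same rule. The other members included 436 that were at 0 TPM in all 9 libraries. The 69 members above 0 in exactly 3 libraries had a median mean level of 0.0585 TPM, and the 176 left out at 2 libraries had one of 0.0419 TPM, so the rule separates members of similar, very low level. A mean of at least 1 TPM, the level set for testing, was reached by 105 of the 465. A member can pass these filters through the group in which it is high.

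Each library was made from CD4+ T cells that had been taken from blood of SD rats, 8 to 10 weeks old, and there were 3 libraries in each of 3 groups. The groups were named normal, model (read here as rats with CIA) and combination (rats with CIA that received compounds in combination for 4 weeks). CIA is read here as collagen-induced arthritis, an immunization model of joint inflammation. The labels do not name the compounds, what the normal and model rats received, how the CD4+ cells were selected, or whether each library came from its own animal, so a p-value here measures only how these libraries vary, and that may be technical variation.

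U1, U2, U4, U5 and U6 each join a set of proteins to form the small nuclear ribonucleoproteins that recognise splice sites and cut out introns, and the minor spliceosome uses its own RNAs for a rare class of introns. The small Cajal body RNAs guide methylation and pseudouridylation of the spliceosomal RNAs, U7 directs the cutting of histone mRNA ends, and U3 and U8 work in the nucleolus on ribosomal RNA. 7SK holds the elongation kinase P-TEFb inactive, the signal recognition particle brings ribosomes to the endoplasmic reticulum, Y RNAs are bound by the Ro protein, and 5S is a structural RNA of the large ribosomal subunit. Most of these RNAs have no poly(A) tail and are short, and mammalian genomes hold many near-identical copies of them, some working genes and many pseudogenes.

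RefSeq tables for the rat assembly GRCr8 held sequences for Scarna15 and Scarna3, and these are shown because they are the members matched to a sequence by symbol, 2 of 465. RefSeq lists both as hairpins that also give miRNAs, of 64 and 90 bases, shorter than the 127 and 151 bases annotated for the members in the deposited tables. Capitals mark the mature miRNA arms, and the remaining letters are the rest of the hairpin, 5′ to 3′ as RNA.
Scarna15 (GRCr8 chr1:144893856-144893919, plus strand): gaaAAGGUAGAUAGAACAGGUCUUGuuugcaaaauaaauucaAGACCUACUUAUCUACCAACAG
Scarna3 (GRCr8 chr6:104955347-104955436, minus strand): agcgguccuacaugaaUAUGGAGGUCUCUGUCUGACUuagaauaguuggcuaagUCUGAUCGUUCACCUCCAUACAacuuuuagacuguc
Both lay below the filter, at a mean of 0.58 TPM for Scarna15 on chr1 and 0.16 TPM for Scarna3 on chr6. All other positions are those of rn6, the build of the deposited tables.

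Aligned depth was 7.52 to 10.1 gigabases a library. Cd3e stood at 427 to 434 TPM in normal, 228 to 405 TPM in model and 323 to 416 TPM in combination libraries, and Cd4 at 203 to 235, 76.5 to 186 and 98.1 to 142 TPM, so both were present in all 9 libraries, with every normal library above all others. The 5 T cell markers found summed to 1491 to 2133, 1088 to 1394 and 1397 to 1779 TPM, lowest in the model libraries like the sum of the small RNAs. Markers of other blood cells were present too and moved with the groups. The 7 CD8 and NK cell markers were likewise lowest in the model libraries, at 100 to 162 TPM in normal, 49.3 to 72.9 TPM in model and 77.3 to 104 TPM in combination libraries, with Gzmb at 0 in some library. The 4 neutrophil markers summed to 14.2 to 33.2, 0.379 to 8.56 and 4.54 to 8.24 TPM, with S100a8 at 0 in some library, and the 4 B cell markers to 3.93 to 24.98, 2.67 to 9.18 and 5.84 to 14.3 TPM. The 6 monocyte markers summed to 29.0 to 174 TPM in normal, 70.3 to 189 TPM in model and 349 to 704 TPM in combination libraries, with all 6 above 0 in every library. The 5 platelet markers summed to 11.4 to 29.6, 20.2 to 35.4 and 78.2 to 122 TPM in the same order, with Ppbp at 0 in some library, and the 5 erythroid markers found summed to 58.9 to 1121, 2407 to 16210 and 260 to 865 TPM, with Slc4a1 at 0 in some library. Their part in the results below was not tested, and fewer cells of a type cannot be told apart from less RNA per cell.

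Of the 105 tested small RNAs, 74 had a negative log2 fold change in model against normal and 92 a positive one in combination against model. Few of these differences passed the test for single genes, which was limma on log2(TPM + 1) over the 14175 genes that averaged 1 TPM or more, at a Benjamini-Hochberg adjusted p under 0.05. In model against normal, 3 of 105 members were called lower (2.86%), where 2.14% of all genes tested were called lower, and 0 were called higher, where 2.84% of all genes were (4.98% in either direction). In combination against model, 6 members were called higher (5.71%, against 2.41% of all genes) and 0 lower (against 2.06%, with 4.47% in either direction). In combination against normal, 7 were called higher (6.67%, against 2.61%) and 2 lower (1.90%, against 1.97%, with 4.58% in either direction). At an unadjusted p under 0.05 in limma, 4 members were higher and 21 lower in model against normal (3.81% and 20%, against 14.5% and 12.6% of all genes). In combination against model 40 were higher and 0 lower (38.1% and 0.00%, against 14.1% and 12.2%), and in combination against normal 19 higher and 6 lower (18.1% and 5.71%, against 14.3% and 11.8%). The shares called lower in model against normal and in combination against normal are thus close to those of all genes. The shares of all genes given here are also the scale for the counts by class and family below.

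Most members had values of one sign in each comparison. The median log2 fold change of the 105 members was -0.31 in model against normal, 0.56 in combination against model and 0.24 in combination against normal, where the medians of all genes tested were -0.01, 0.04 and 0.04. In combination against normal 76 of the 105 had a positive value. Groups did not overlap for 24 lower members in model against normal (22.9%, against 14.5% of all genes), for 29 higher members in combination against model (27.6%, against 13.9%) and 0 lower ones (against 13.0%), and in combination against normal for 18 higher (17.1%, against 17.8%) and 8 lower members (7.62%, against 17.9%). In model against normal, 7 higher members did not overlap (6.67%, against 18.7%). Each pair of comparisons shares a group of libraries, so these medians are not independent of each other. The counts of calls moved with single libraries, for all genes as for the members. Over all genes 706, 633 and 649 were called in the 3 comparisons, and with 1 library left out 34 to 2834, 1 to 1328 and 21 to 1590. Leaving out normal 1, normal 2 or normal 3 left 1, 0 and 0 members called in model against normal, 0, 0 and 1 in combination against model, and 0, 0 and 1 in combination against normal. Leaving out model 1, 2 or 3 left 1, 7 and 0 in the first comparison, 2, 5 and 0 in the second and 6, 12 and 8 in the third, and leaving out combination 1, 2 or 3 left 0, 2 and 3 in the second and 0, 2 and 8 in the third.

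**Figure D1:**
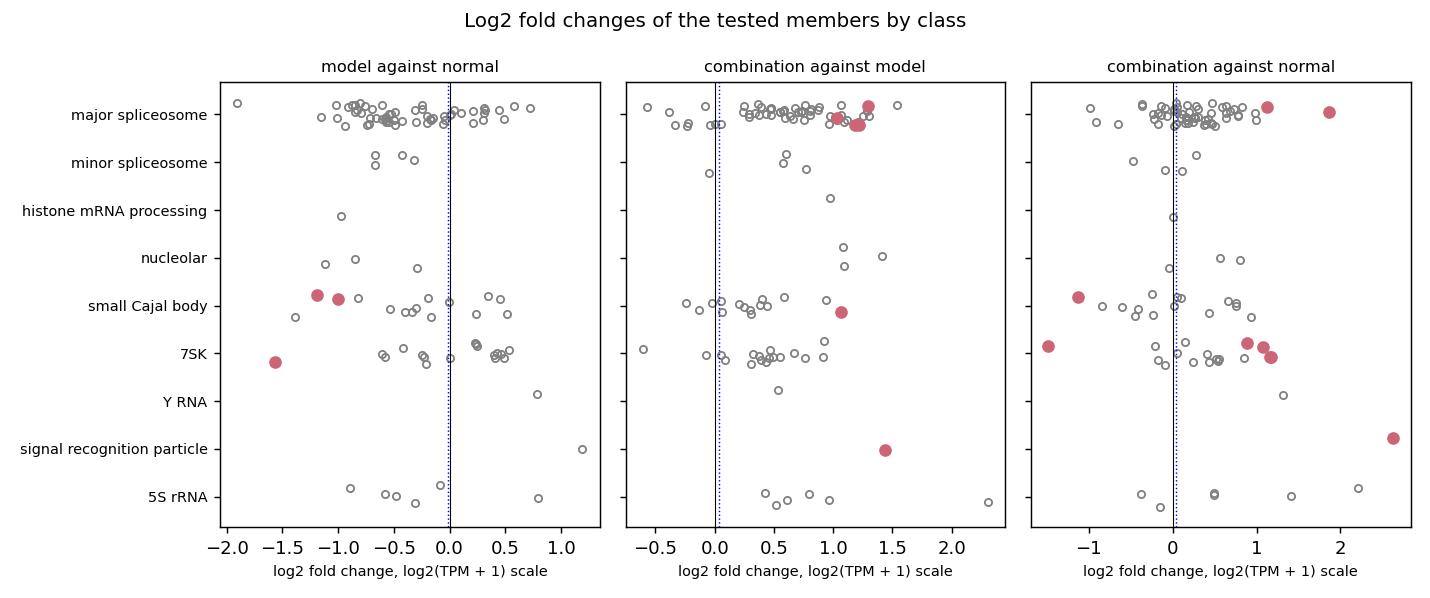
Log2 fold change of each tested member by class in the 3 comparisons, on the log2(TPM + 1) scale (horizontal axis). Filled red points passed the adjusted p threshold of 0.05, open points did not, and the dotted line is the median of all 14175 genes tested; most of the 57 major spliceosome points sit left of it in model against normal and right of it in combination against model.

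Summed over all 465 members, the small RNAs came to 504, 476 and 495 TPM in normal libraries 1 to 3, to 368, 369 and 318 TPM in model libraries 1 to 3, and to 618, 568 and 890 TPM in combination libraries 1 to 3. The 3 groups did not overlap, with the model libraries lowest and the combination libraries highest. The sums were 492 ± 14.1 TPM, 351 ± 29.3 TPM and 692 ± 173 TPM (SD, n = 3 each), and no p is given because the classes are sums over chosen members. The classes differed in their pattern. The major spliceosome sum had the order of the total, the minor spliceosome sum overlapped between combination and normal, and the 7SK sum overlapped between normal and model. The small Cajal body sum was below normal in the combination libraries, which rested on SCARNA2, as given below.

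**Figure D2:**
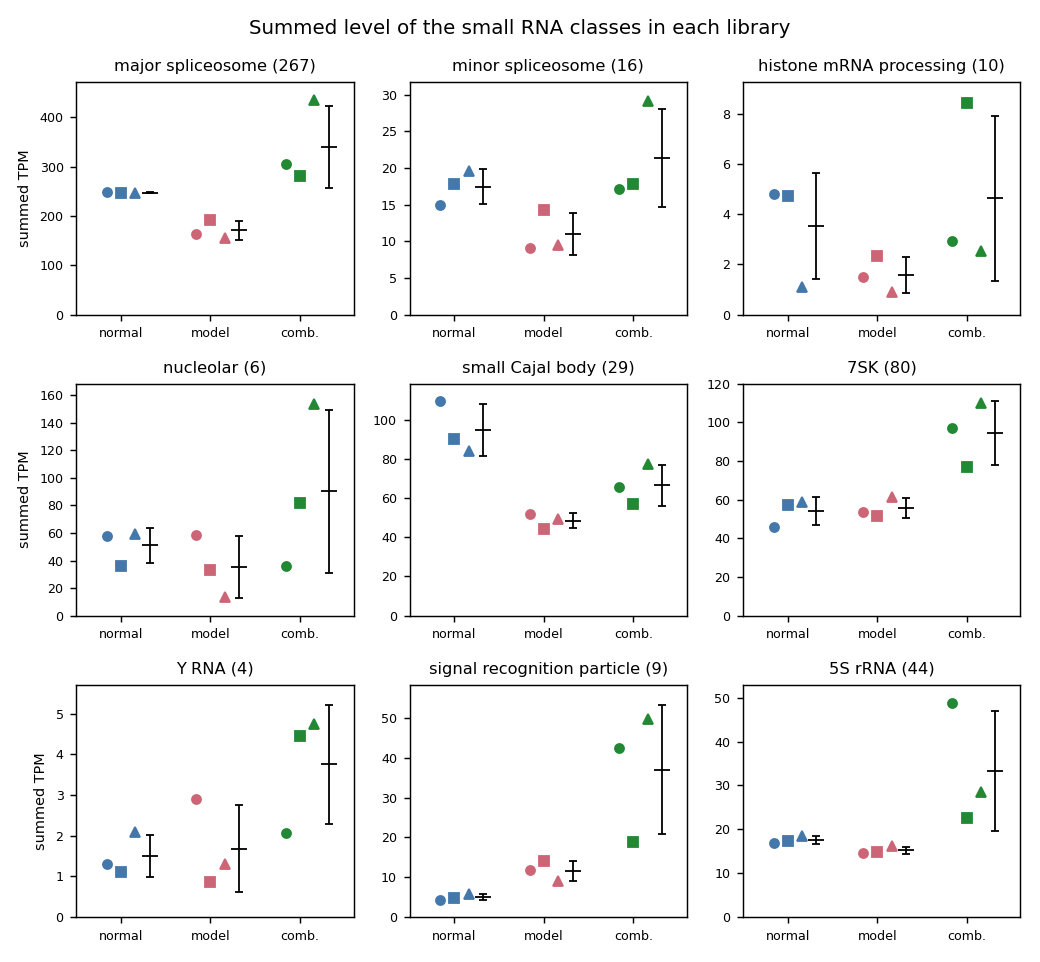
Summed TPM of each class (vertical axis, number of kept members in brackets) in the normal, model and combination libraries. Circles, squares and triangles are libraries 1, 2 and 3 of a group, and the bar is the mean with its SD; the major spliceosome class separates all 3 groups, while 7SK separates only the combination libraries from the others.

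Of the called members, the small Cajal body RNA with the deepest coverage fell. SCARNA2 (chr2:211344017-211344432, minus strand, outside the other annotated genes), a guide for modification of U2, stood at 44.4, 51.5 and 48.3 TPM in normal libraries 1 to 3, at 24.4, 20.2 and 17.3 TPM in the model libraries and at 18.4, 17.5 and 30.1 TPM in the combination libraries. Every normal library lay above every other library, and the model and combination libraries overlapped. The log2 fold change was -1.19 ± 0.221 (SE) in model against normal (limma adjusted p = 0.0259) and -1.13 ± 0.221 in combination against normal (adjusted p = 0.0349), and 0.06 ± 0.221 in combination against model (adjusted p = 0.894). Mean base coverage of SCARNA2 was 76.8 to 271 per library. The model-against-normal call was lost without normal 1, 2 or 3 or model 3 (adjusted p 0.0707, 0.106, 0.0844 and 0.072), and the combination-against-normal call without normal 1, 2 or 3 or combination 1 or 2 (0.0941, 0.122, 0.0849, 0.0928 and 0.124). Its fold change stayed between -1.31 and -1.06 in model against normal and between -1.37 and -0.995 in combination against normal over all 22 alternatives.

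SCARNA13 (chr6:128749156-128749430, outside other genes) also fell in the model libraries, from 2.63, 1.82 and 2.10 TPM in normal libraries 1 to 3 to 0.788, 0.851 and 0.204 TPM in the model libraries. It stood at 1.05, 1.15 and 1.06 TPM in the combination libraries, between the other groups with no overlap. The model-against-normal difference was -0.999 ± 0.215 (adjusted p = 0.0351), and those of the combination libraries were 0.40 against model (adjusted p = 0.273) and -0.60 against normal (adjusted p = 0.121). It rests on 1.11 to 14.2 bases of coverage, and the call held in 3 of 9 fits that left out 1 library, being lost without normal 1, 2 or 3, model 1 or 3 or combination 2.

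SCARNA21 (chr10:55950797-55950936, in an intron of Chd3 on the same strand) rose in combination against model. It stood at 1.89, 1.17 and 2.17 TPM in normal libraries 1 to 3, at 0.990, 0.812 and 1.40 TPM in the model libraries and at 3.82, 2.33 and 3.93 TPM in the combination libraries. The combination libraries lay above all 6 others. The log2 fold change was 1.07 ± 0.233 (adjusted p = 0.0417), and the call was lost when any 1 of the 9 libraries was left out (adjusted p 0.0502 to 0.0951). Its host Chd3, a chromatin remodeller, went from 124 ± 25.9 to 141 ± 30.2 TPM (log2 fold change 0.18, adjusted p = 0.615).

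Of the 15 small Cajal body RNAs tested, 2 were called lower in model against normal (13.3%, against 2.14% of all genes). In combination against model 1 was called higher (6.67%, against 2.41%), and in combination against normal 1 lower (6.67%, against 1.97%). The median log2 fold changes were -0.30, 0.30 and 0.01. The other 12 passed no test. SCARNA16 (chr10) stood at 7.98, 10.1 and 8.04 TPM in normal, 4.90, 4.22 and 4.31 TPM in model and 6.53, 1.71 and 6.57 TPM in combination libraries, with the normal libraries above all others. A transcript sharing its exon stood at 3.62 TPM in combination 2 and at most 0.294 TPM elsewhere. With it added, SCARNA16 came to 8.20, 10.4 and 8.08 TPM, 5.10, 4.43 and 4.50 TPM, and 6.82, 5.34 and 6.80 TPM. The combination libraries then lay between the other groups with no overlap. SCARNA7 (chr2, in an intron of the importin gene Kpna4) differed by 0.93 ± 0.259 in combination against normal (adjusted p = 0.069), with levels of 1.48 to 2.41 TPM in normal and 3.18 to 7.02 TPM in combination libraries. SCARNA18, SCARNA23, SCARNA4, SCARNA15 at chr2, the pair of SCARNA20 loci and the 3 SCARNA8 loci lay between -0.53 and 0.76 in every comparison, with most groups overlapping. The class as a whole summed to 94.5 ± 13.3 TPM in normal, 48.5 ± 3.72 TPM in model and 66.6 ± 10.5 TPM in combination libraries with no overlap. SCARNA2 gave 43.3% of it, and without SCARNA2 the combination-to-normal log2 ratio went from -0.51 to -0.06. The rest of the sum still held SCARNA17, at 31.2, 1.97 and 2.19 TPM in normal and 1.78, 14.5 and 1.79 TPM in combination libraries. Its values depend on how one locus was divided between transcripts, as given below.

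**Figure D3:**
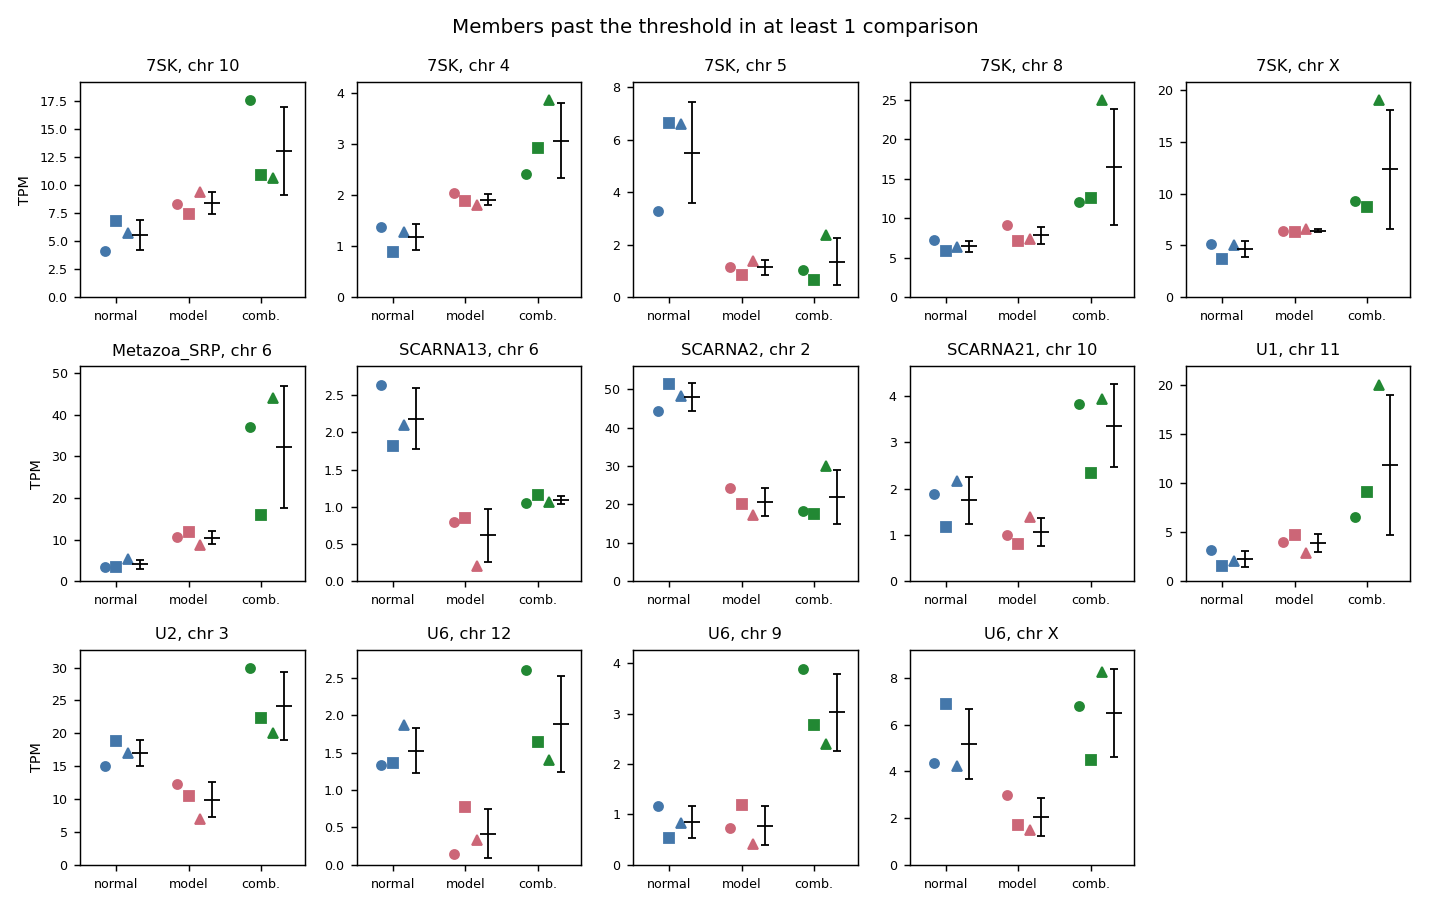
TPM (vertical axis) of the 14 members called in at least 1 comparison, in the normal, model and combination (comb.) libraries. Circles, squares and triangles are libraries 1, 2 and 3 of a group and the bar is the mean with its SD; SCARNA2 separates the normal libraries from the rest, and Metazoa_SRP steps up from normal to model to combination.

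The major spliceosome class held 267 members, and its sum was 248, 247 and 246 TPM in normal libraries 1 to 3, 164, 193 and 156 TPM in the model libraries and 306, 280 and 435 TPM in the combination libraries. The groups did not overlap in any comparison. The log2 ratio of group means was -0.53 for model over normal, 0.99 for combination over model and 0.46 for combination over normal, and 0.78 and 0.25 for the combination ratios without combination 3. Of the 57 members tested, limma called 0 in model against normal. At an unadjusted p under 0.05, 1 was higher and 14 lower there (1.75% and 24.6%, against 14.5% and 12.6% of all genes). In combination against model 4 were called higher and 0 lower (7.02% and 0.00%, against 2.41% and 2.06%). In combination against normal 2 were called higher and 0 lower (3.51% and 0.00%, against 2.61% and 1.97%).

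U2, which pairs with the branch point of introns, had the widest swing of the larger families. Its 34 members summed to 94.7, 84.4 and 80.2 TPM in normal libraries 1 to 3, 50.6, 56.7 and 28.5 TPM in the model libraries and 74.6, 92.6 and 194 TPM in the combination libraries. All model libraries lay below all others, while normal and combination overlapped. The 1 called U2 (chr3:124939267-124939351, minus strand, 85 bases, outside other genes) stood at 14.98, 18.9 and 17.0 TPM in normal, 12.3, 10.4 and 7.02 TPM in model and 30.0, 22.4 and 20.1 TPM in combination libraries, so that the groups did not overlap. Its log2 fold change was 1.22 ± 0.227 in combination against model (adjusted p = 0.0298), -0.74 ± 0.227 in model against normal (adjusted p = 0.0832) and 0.47 ± 0.227 in combination against normal (adjusted p = 0.223). The call held without normal 3, model 1, model 2 or combination 3 and was lost without each of the other 5 libraries (adjusted p 0.0506 to 0.0853).

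The U2 copies fell into 2 kinds by annotated length, a split that was noticed after their values were seen. The 12 tested copies of 191 bases, which include a run of 5 at chr10:89511688-89570492 and a run of 3 at chr9:79560083-79592878, had combination 3 as the highest of the 9 libraries in 12 of 12 and model 3 as the lowest in 10 of 12. They summed to 43.4, 52.8 and 55.9 TPM in normal, 27.7, 38.7 and 13.8 TPM in model and 32.1, 58.2 and 158 TPM in combination libraries. The 5 tested copies of other lengths had combination 3 as the highest in 0 of 5, and their sums in the combination libraries were 35.0, 25.3 and 25.6 TPM. As listed, the 191-base copies thus carried the excess of combination 3. One of the other 5 copies, U2 at chr8:118440314, shares its exon with an assembled transcript. With that transcript added it stood at 17.85, 0 and 39.2 TPM in combination libraries 1 to 3, and combination 3 was its highest library. The difference between the 2 kinds of copy thus depends on how reads were divided at that locus. Near-identical copies share reads that an aligner places by its own rule, so the 12 are not 12 separate measurements.

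U1, which pairs with the upstream splice site, and U5, which holds the exon ends together, had the same library at the top. The 50 U1 members summed to 59.9, 66.1 and 69.5 TPM in normal, 47.6, 56.7 and 41.8 TPM in model and 68.1, 83.6 and 111 TPM in combination libraries, with all model libraries lowest. Of the 8 tested U1 copies of 164 bases, 6 were highest in combination 3. The leading copy (chr6:75620110-75622959) stood at 17.7, 17.96 and 19.5 TPM, then 11.5, 12.2 and 6.16 TPM, then 13.7, 14.1 and 23.2 TPM in the 3 groups, with adjusted p = 0.0877 for model against normal. The 4 tested U5 copies, all of 116 bases and outside other genes, had combination 3 highest and model 3 lowest in 4 of 4. U5 sums were 10.3, 11.4 and 12.9 TPM in normal, 7.13, 6.59 and 1.80 TPM in model and 7.38, 10.9 and 21.2 TPM in combination libraries, and 0 of 4 copies were called by limma in any comparison, with 3 lower in model against normal and 4 higher in combination against model at an unadjusted p under 0.05.

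The 1 called U1 copy followed another order. U1 at chr11:83848438-83848601 (minus strand, 164 bases, outside other genes) stood at 3.14, 1.57 and 2.08 TPM in normal, 4.00, 4.67 and 2.86 TPM in model and 6.53, 9.05 and 19.9 TPM in combination libraries. All combination libraries lay above all others, and normal and model overlapped. It rose by 1.87 ± 0.36 in combination against normal (adjusted p = 0.0336) and differed by 1.29 ± 0.36 in combination against model (adjusted p = 0.0699). Without combination 3 the rise was 1.44 (adjusted p = 0.0328), and the call was lost without normal 1, 2 or 3 or combination 1 or 2 (adjusted p 0.0636 to 0.122). The level of this copy in model and normal libraries was in the reverse order to the U1 sum.

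**Figure D4:**
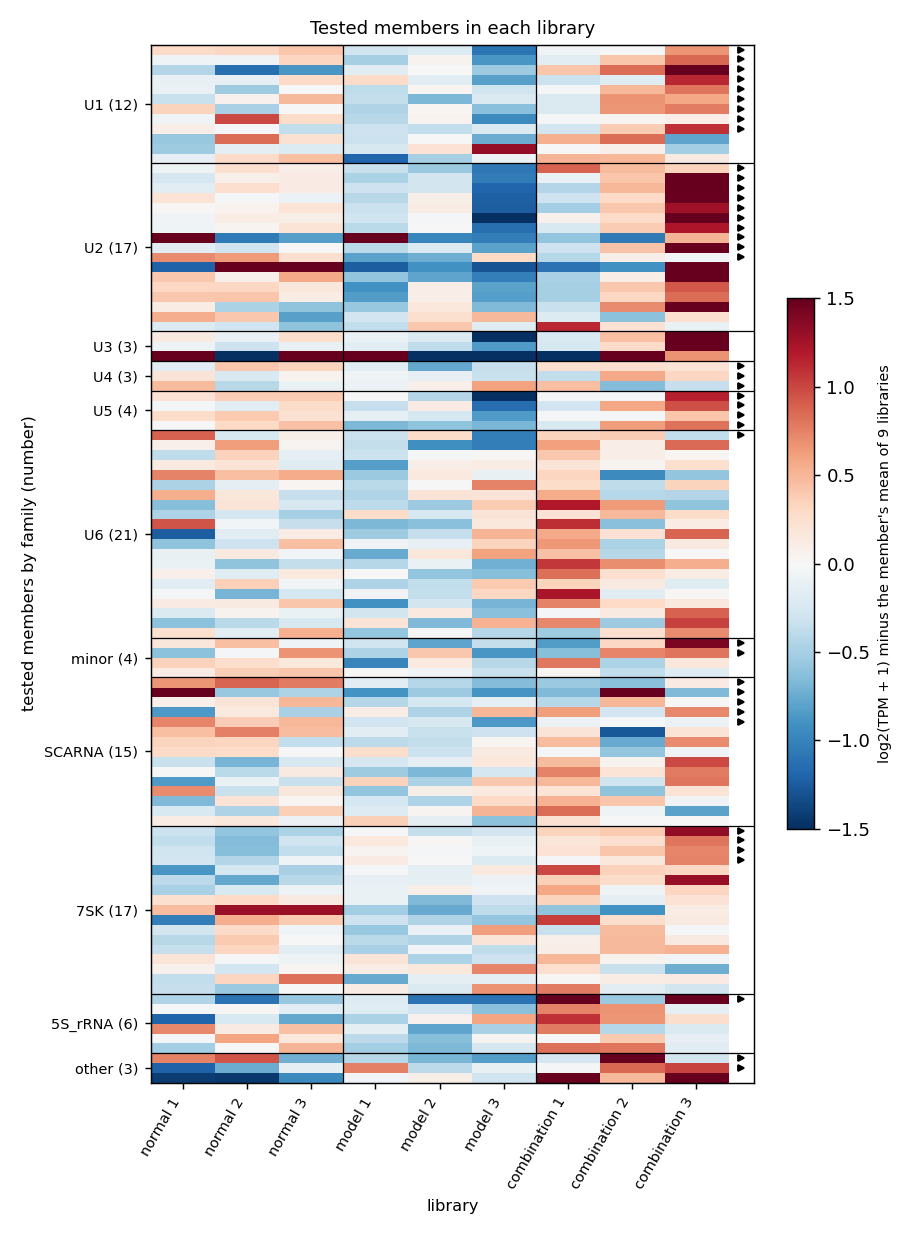
Log2(TPM + 1) of the 105 tested members in each of the 9 libraries (columns) minus the member's own mean, grouped by family (rows), with red above and blue below the mean and colours ending at 1.5 either way. Triangles at the right mark members outside other annotated genes; the 12 U2 copies of 191 bases and all 4 U5 copies are highest in combination 3.

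Combination 3 was the highest library for 46 of the 105 tested members and model 3 the lowest for 33. The place of a member in the genome went with this, but also with its family. Outside other genes lay 7 of 8 tested U1 copies of 164 bases, 7 of 12 U2 copies of 191 bases and 4 of 4 U5 copies. For U1 and U2 copies of other lengths it was 2 of 4 and 3 of 5. For U6 it was 1 of 7 copies of 107 bases and 0 of 14 of other lengths. Place and family were not separated, and near-identical copies share reads. Among the 41 tested members outside other annotated genes, combination 3 was highest in 26 and model 3 lowest in 22, while among the 36 in an intron of a gene on the opposite strand combination 1 was highest in 17 and combination 3 in 8. Members outside genes had median log2 fold changes of -0.55, 0.73 and 0.30 in the 3 comparisons, those in opposite-strand introns -0.18, 0.43 and 0.12, and the 22 in same-strand introns -0.20, 0.46 and 0.21. Of all 465 members, 169 lay outside other genes (36.3%), 134 in a same-strand intron, 143 in an opposite-strand intron and 19 in an exon. Whether the library kit or the counting kept strand is not given, so reads of an intron and of a small RNA inside it cannot be told apart in those members.

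U6, the catalytic RNA of the spliceosome, had the most copies (158), and these were the most even: the 5 highest gave 21.8% of the family. The family summed to 77.4, 79.4 and 76.8 TPM in normal, 53.6, 68.2 and 78.0 TPM in model and 146, 83.4 and 99.9 TPM in combination libraries, so the combination libraries were above all others and normal and model overlapped. Here combination 1, not combination 3, was highest, in 9 of the 21 tested copies. All 3 copies called in combination against model lay inside introns. This place was not particular to them, since 1 of 7 tested U6 copies of 107 bases and 0 of 14 of other lengths lay outside other genes.

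U6 at chr9:16072175-16072281 (in an intron of Ubr2, opposite strand) stood at 1.18, 0.537 and 0.829 TPM in normal, 0.739, 1.19 and 0.413 TPM in model and 3.89, 2.78 and 2.40 TPM in combination libraries. Every combination library lay above every other. It rose by 1.18 against model (adjusted p = 0.0348) and by 1.12 against normal (adjusted p = 0.0385), and Ubr2, a ubiquitin ligase, stood at 27.3 ± 8.00, 26.9 ± 3.60 and 37.3 ± 7.55 TPM in the 3 groups (adjusted p = 0.257 and 0.25 for the same comparisons). The 2 calls held in 2 and 4 of 9 fits that left out 1 library.

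U6 at chrX:78205568-78205661 (in an intron of P2ry10, opposite strand) stood at 4.37, 6.90 and 4.24 TPM in normal, 3.00, 1.70 and 1.49 TPM in model and 6.80, 4.48 and 8.23 TPM in combination libraries. It rose by 1.29 in combination against model (adjusted p = 0.0397), held in 2 of 9 fits that left out 1 library. P2ry10, a receptor gene of lymphocytes, had the same order of groups, at 43.8 ± 6.29, 22.9 ± 6.47 and 52.4 ± 16.3 TPM, with a log2 fold change of 1.15 in combination against model (adjusted p = 0.051).

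U6 at chr12:23689034-23689139 (in an intron of Dtx2, same strand) stood at 1.33, 1.37 and 1.87 TPM in normal, 0.144, 0.778 and 0.328 TPM in model and 2.61, 1.64 and 1.40 TPM in combination libraries. It rose by 1.03 in combination against model (adjusted p = 0.0454), held only without model 2 among the 9 fits that left out 1 library. Dtx2, a ubiquitin ligase of the Notch pathway, went the other way: it stood at 15.6 ± 1.16, 27.2 ± 3.44 and 13.3 ± 2.57 TPM, rose in model against normal (log2 fold change 0.76, adjusted p = 0.0452) and fell in combination against model (-0.99, adjusted p = 0.0296). Leaving out 1 library kept these 2 calls in 3 and 4 of 9 fits. The member and its host were thus in reverse order between groups.

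U4, the partner of U6, was low, with 18 members summing to 5.85 ± 0.313, 5.20 ± 0.791 and 9.13 ± 0.855 TPM in normal, model and combination libraries and the combination libraries above all others. Its 3 tested copies were at a mean of 1.02 to 1.64 TPM and passed no test.

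The minor spliceosomal RNAs gave 16 members and 4 tested, and limma called 0 of 4 in any comparison (0 and 0 at an unadjusted p under 0.05 in both comparisons with the model group, 1 lower in combination against normal). U11 (chr5:150455816-150455949), which recognises the start of a minor intron, stood at 1.88, 3.33 and 6.07 TPM in normal, 2.21, 4.84 and 1.41 TPM in model and 1.84, 6.31 and 6.67 TPM in combination libraries. U12 (chr7:124020864-124021014), which pairs with its branch point, stood at 4.15, 5.24 and 3.39 TPM, 2.73, 1.65 and 2.56 TPM, and 1.55, 4.65 and 11.2 TPM. U6atac (chr10:93482382-93482474, opposite strand to Tlk2) stood at 5.34, 4.997 and 4.55 TPM, 1.52, 4.54 and 2.75 TPM, and 7.62, 2.60 and 4.62 TPM. U4atac (chr13:34437754-34437878, in an intron of Clasp1 on the opposite strand) was the 1 minor RNA with the combination libraries below normal, at 1.79, 2.30 and 2.41 TPM, 1.59, 1.46 and 1.03 TPM, and 1.61, 0.980 and 1.27 TPM (adjusted p = 0.162 against normal). For U12, U6atac and U4atac, 3 of the 4 tested, all model libraries were below all normal libraries (75.0%, against 14.5% of all genes). For U6atac the gap was narrow. The spread within the combination group was as wide as the range over all libraries for U12.

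U7, needed for histone mRNA ends, had 1 tested locus (chr9:20279628-20279689, 62 bases), at 3.32, 3.96 and 0.567 TPM in normal, 0.914, 0.600 and 0.459 TPM in model and 1.16, 6.34 and 1.13 TPM in combination libraries. The model libraries lay below the combination libraries, with an adjusted p of 0.286, and combination 2 was far above the other combination libraries.

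U3, the nucleolar RNA with the highest sum here, had the tested member of highest mean over the 9 libraries, at 30.9 TPM against 30.2 TPM for SCARNA2. That order came from the combination group (48.2 against 22.0 TPM), since SCARNA2 was higher in the normal (48.0 against 27.4 TPM) and model group means (20.6 against 17.1 TPM). The U3 member, the first of those given next, sums the U3 transcripts of 1 assembled locus, so single copies are not compared. U3 at chr10:74757884-74765599 stood at 28.0, 23.6 and 30.7 TPM in normal, 23.7, 21.7 and 5.91 TPM in model and 21.6, 35.2 and 87.7 TPM in combination libraries, and U3 at chr10:74778189-74778403 at 14.4, 12.1 and 14.0 TPM, 13.5, 11.5 and 8.01 TPM, and 12.6, 18.8 and 58.2 TPM. Both had model 3 lowest and combination 3 highest, with overlapping groups and adjusted p of 0.146 and 0.164 in combination against model. The first of them also shares exons with other transcripts. With these added it came to 28.75, 30.05 and 16.2 TPM in the model libraries and 111 TPM in combination 3. Model 3 was then still the lowest library and combination 3 the highest, but the drop in model 3 was smaller. The 2 kept U8 loci lay below the filter, at 0 to 1.08 TPM in total.

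U3 at chr20:45357179-45357392 shows how the estimate divides one locus between names. It was listed at 14.4, 0 and 13.2 TPM in normal, 20.3, 0 and 0 TPM in model and 0, 26.3 and 6.36 TPM in combination libraries. The overlapping transcript annotated ACEA_U3 was listed at 0.034, 11.8 and 0.024 TPM, 0.018, 13.4 and 11.7 TPM, and 16.9, 0.036 and 61.6 TPM. One name was near 0 wherever the other was high, save in combination 3. The sums were 14.4, 11.8 and 13.2 TPM, 20.3, 13.4 and 11.7 TPM, and 16.9, 26.3 and 67.9 TPM, and so had a narrower range within the normal and model groups than either name, though not within the combination group. SCARNA17 at chr18:70733363-70733503, was split likewise. By itself it stood at 31.2, 1.97 and 2.19 TPM in normal, 1.37, 2.03 and 1.39 TPM in model and 1.78, 14.5 and 1.79 TPM in combination libraries, and with the assembled transcripts that share its exon at 31.9, 11.3 and 11.99 TPM, 7.83, 11.5 and 7.54 TPM, and 9.55, 14.9 and 9.35 TPM.

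**Figure D5:**
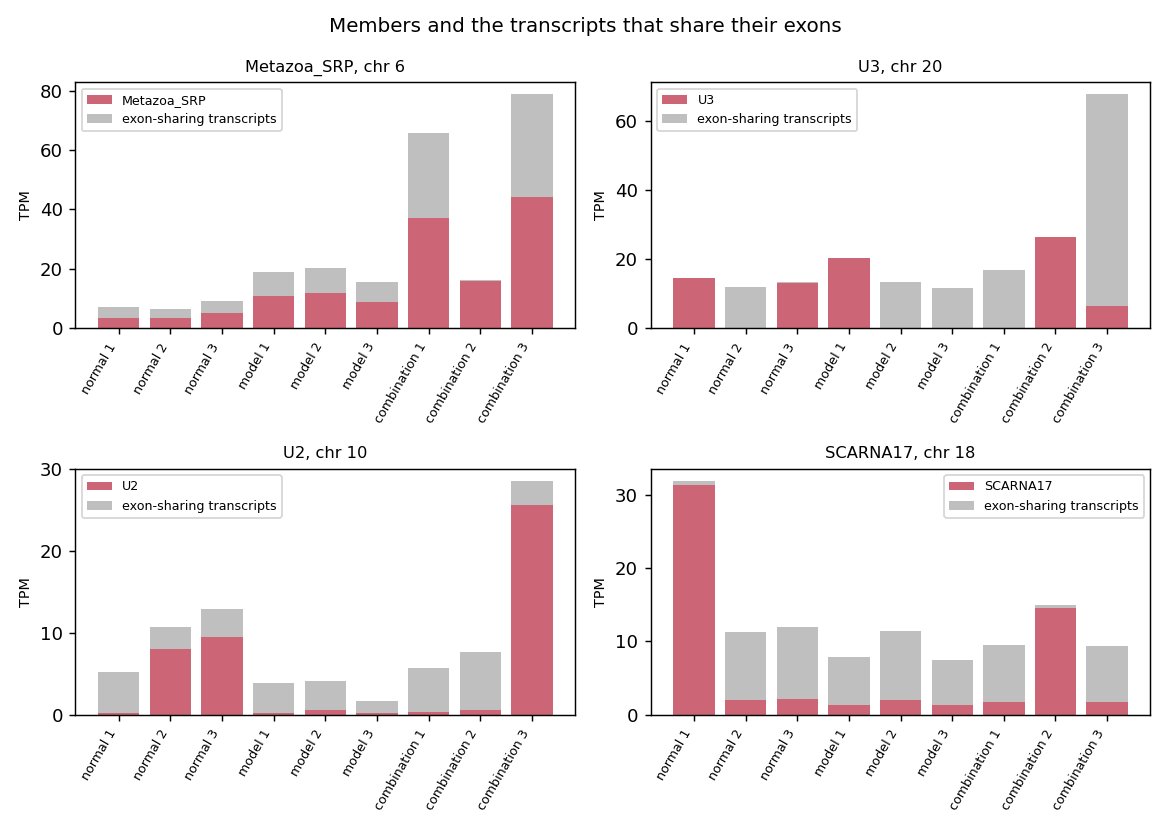
TPM (vertical axis) of 4 members (red) and of the transcripts that share their exons (grey, stacked) in each of the 9 libraries (horizontal axis). For U3 on chr 20 the colour alternates between libraries while the stacked height stays between 11.7 and 26.3 TPM except in combination 3, and for Metazoa_SRP the grey part is close to 0 only in combination 2.

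The RNA of the signal recognition particle had the largest rise among the called members. Metazoa_SRP at chr6:91680229-91680528 (minus strand, 300 bases) stood at 3.48, 3.39 and 5.20 TPM in normal, 10.7, 11.8 and 8.75 TPM in model and 37.1, 15.8 and 44.1 TPM in combination libraries. The 3 groups did not overlap, and each step went up. Its log2 fold change was 1.19 ± 0.34 in model against normal (adjusted p = 0.0702), 1.44 ± 0.34 in combination against model (adjusted p = 0.0471) and 2.63 ± 0.34 in combination against normal (adjusted p = 0.0114). The last call held in 19 of 22 alternatives, among them the replicate block, and was lost without normal 1, normal 2 or combination 1 (adjusted p 0.0547, 0.0525 and 0.0636). The call against model held in 9 of 22 and was lost when the overlapping transcripts were added (adjusted p = 0.146, over a range of 0.0233 to 0.146). An annotated transcript whose exon overlaps it, AABR07064724.1, stood at 3.48, 2.75 and 3.65 TPM, 8.26, 8.20 and 6.76 TPM, and 28.6, 0.135 and 34.7 TPM. The sum of the locus was 7.10, 6.28 and 8.996 TPM, 19.1, 20.2 and 15.7 TPM, and 65.9, 16.1 and 78.9 TPM, so that combination 2 lay within the range of the model libraries. This locus gave 87.5% of the class, and without it the model-to-normal log2 ratio of the other 8 members was 0.41 in place of 1.24.

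The 80 members of 7SK summed to similar values in normal (46.1, 57.4 and 59.0 TPM) and model libraries (53.8, 51.6 and 61.4 TPM). They summed to more in the combination libraries (97.1, 77.1 and 110 TPM). The major spliceosome sum differed from this in being lower in model than in normal libraries, but the sums of its U4 and U6 families had the 7SK pattern. Of 17 tested 7SK loci, 0 were called higher and 1 lower in model against normal (0.00% and 5.88%, against 2.84% and 2.14% of all genes). In combination against model limma called 0, with 7 higher and 0 lower at an unadjusted p under 0.05 (41.2% and 0.00%, against 14.1% and 12.2%). In combination against normal 4 were called higher and 1 lower (23.5% and 5.88%, against 2.61% and 1.97%). The median log2 fold changes were 0.23, 0.43 and 0.43. The leading locus, at chr8:85480292-85480622 (331 bases, outside other genes), stood at 7.21, 5.80 and 6.39 TPM in normal, 9.09, 7.05 and 7.42 TPM in model and 12.01, 12.5 and 24.95 TPM in combination libraries, and rose by 1.16 ± 0.263 in combination against normal (adjusted p = 0.044). All combination libraries were above all others. The 4 rises of 7SK loci against normal held in 2 or 3 of 9 fits that left out 1 library: leaving out normal 1, 2 or 3, model 1 or combination 1 or 2 ended each of them, leaving out model 3 also ended those on chr8 and chrX, and leaving out combination 3 that on chr4.

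The 3 other 7SK loci that rose against normal had the same order of groups. At chrX:23467547-23467864 (in an intron of LOC685699, a gene listed at 0 in all libraries) 7SK stood at 5.13, 3.72 and 5.05 TPM, 6.40, 6.27 and 6.55 TPM, and 9.28, 8.72 and 19.0 TPM in normal, then model, then combination libraries (log2 fold change against normal 1.17, adjusted p = 0.0449). At chr4:139165424-139165742 (outside other genes) it stood at 1.39, 0.886 and 1.27 TPM, 2.04, 1.89 and 1.82 TPM, and 2.41, 2.92 and 3.87 TPM (log2 fold change 0.89, adjusted p = 0.0394). At chr10:36724026-36724278 (in an intron of the splicing kinase gene Clk4, same strand) it stood at 4.15, 6.85 and 5.74 TPM, 8.30, 7.47 and 9.42 TPM, and 17.6, 10.9 and 10.6 TPM (log2 fold change 1.08, adjusted p = 0.0397). In all 3 loci the groups did not overlap, with model between normal and combination. For the last, Clk4 itself stood at 67.8 ± 5.78, 64.4 ± 7.75 and 98.7 ± 12.6 TPM (adjusted p = 0.08 against normal), and with the assembled transcripts that share the member's exon added the call was lost (adjusted p = 0.393, over a range of 0.00803 to 0.393).

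The 7SK locus at chr5:169380739-169381018 (280 bases, in an intron of Acot7 on the opposite strand) went the other way. It stood at 3.28, 6.66 and 6.61 TPM in normal, 1.17, 0.847 and 1.39 TPM in model and 1.05, 0.651 and 2.37 TPM in combination libraries, with every normal library above every other. It fell by 1.57 in model against normal (adjusted p = 0.0299) and by 1.48 in combination against normal (adjusted p = 0.0382). The first call was lost without normal 2, normal 3, model 1 or model 3 (adjusted p 0.0681 to 0.115), and the second without normal 1, 2 or 3 or combination 1 or 2 (0.0711 to 0.138). Acot7, a thioesterase gene, stood at 136 ± 12.7, 136 ± 34.1 and 91.8 ± 6.61 TPM and passed no test. The other 12 tested 7SK loci, which passed no test, had log2 fold changes in combination against normal from -0.21 at chr11:64748504 to 0.86 at chr17:90799609 (adjusted p = 0.0547), and included loci at chr1:246926595, chr2:182944236, chr3:161229281, chr4:8204279, chr6:10897031, chr7:120929660, chr9:86318155, chr10:4629433, chr12:2164012 and chr12:2517764.

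The Y RNAs were near the limit of measurement. Their 4 loci summed to 1.11 to 2.08 TPM in normal, 0.860 to 2.89 TPM in model and 2.07 to 4.73 TPM in combination libraries. The 1 tested locus (chr4:77459794-77459895) stood at 0, 0.383 and 1.09 TPM, 2.89, 0.763 and 1.14 TPM, and 1.27, 3.18 and 3.66 TPM in the 3 groups, and passed no test (adjusted p = 0.0848 for combination against normal).

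The 44 members annotated as 5S ribosomal RNA summed to 16.9, 17.2 and 18.6 TPM in normal, 14.6, 14.7 and 16.1 TPM in model and 48.8, 22.6 and 28.5 TPM in combination libraries, with no overlap between groups. Of 6 tested, 0 were called by limma in any comparison (1 higher and 2 lower, 3 higher and 0 lower, and 2 higher and 0 lower at an unadjusted p under 0.05). The leading locus (chr10:86231389-86231511) stood at 3.29, 3.45 and 2.91 TPM, 2.88, 2.59 and 1.84 TPM, and 6.39, 5.98 and 3.00 TPM. The locus at chr19:56338736-56338854, the 1 of the 6 outside other genes, was at 0 to 0.886 TPM in 6 libraries and in combination 2 at 0.459 TPM, but at 13.8 and 9.54 TPM in combination 1 and 3. In 5 of the 6 loci combination 1 was the highest library.

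The genes of the proteins that work with these RNAs gave shares of calls at the adjusted threshold below those of all genes, apart from 2.14% called lower in combination against model, where all genes gave 2.06%. Of 148 partner genes listed by their known roles, 142 were found and 140 tested. In model against normal limma called 2 higher and 0 lower (1.43% and 0.00%), with 22 and 9 at an unadjusted p under 0.05 (15.7% and 6.43%, against 14.5% and 12.6% of all genes). In combination against model it called 1 higher and 3 lower (0.714% and 2.14%), with 5 and 23 unadjusted (3.57% and 16.4%, against 14.1% and 12.2%). In combination against normal it called 3 higher and 0 lower (2.14% and 0.00%, against 2.61% and 1.97%), with 17 and 20 unadjusted (12.1% and 14.3%, against 14.3% and 11.8%). Their median log2 fold changes were 0.08, -0.06 and 0.03. Among the 7 tested genes of the Sm ring, the protein ring that every spliceosomal RNA except U6 carries, limma called 0 in any comparison, with 0 at an unadjusted p under 0.05, and Snrpb of that ring stood at group means of 219, 256 and 205 TPM in normal, model and combination libraries. Sf3b1, a U2 protein at the branch point, differed by 0.70 in combination against model (adjusted p = 0.0634) and Prpf8, the central U5 protein, by 0.65 (adjusted p = 0.115). Cdk9, the kinase of P-TEFb, differed by -0.44 in the same comparison (adjusted p = 0.0911).

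The partner genes that did pass came from 6 of the lists. Xpo1, the exportin that carries new spliceosomal RNAs out of the nucleus, stood at 48.7, 42.3 and 39.5 TPM in normal, 34.2, 42.3 and 42.8 TPM in model and 101, 86.5 and 61.7 TPM in combination libraries, and rose by 1.02 against model (adjusted p = 0.0312) and by 0.89 against normal (adjusted p = 0.0423). In the Cajal body and scaRNP list, 3 of 12 fell in combination against model: Fbl, the methyltransferase of box C/D particles, by 0.70 (adjusted p = 0.0449), Nop56, a core protein of the same particles, by 0.75 (adjusted p = 0.0462) and Nolc1, a chaperone of nucleoli and Cajal bodies, by 0.78 (adjusted p = 0.0462). Fbl stood at 157, 162 and 172 TPM in the model and 106, 114 and 82.6 TPM in the combination libraries, with no overlap. Of all genes, only 2.06% were called lower in that comparison. At an unadjusted p under 0.05, 7 of the 12 in this list were lower there and 0 higher (58.3% and 0.00%, against 12.2% and 14.1% of all genes). Against normal, 0 of the 12 were called, with 7 lower and 0 higher unadjusted (58.3% and 0.00%, against 11.8% and 14.3%). The model-against-normal comparison had 0 called, with 1 higher and 1 lower unadjusted. In combination against normal, Ell2, an elongation factor, rose by 2.65 (adjusted p = 0.0259) and Gtf3c3, a subunit of the RNA polymerase III factor TFIIIC, by 1.53 (adjusted p = 0.0432). In model against normal, Eri1, an exonuclease of histone mRNA ends, rose by 0.88 (adjusted p = 0.0399) and Srpra, a subunit of the receptor of the signal recognition particle, by 0.91 (adjusted p = 0.0376). These calls held in 1 to 4 of 9 fits that left out 1 library.

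The nucleolar guide RNAs of the same libraries, which are the most like of the other small RNAs, give a scale for these values. Of 102 SNORD genes tested, 48 were called lower in model against normal (47.1%, against 2.14% of all genes), 26 higher in combination against model (25.5%, against 2.41%) and 0 in combination against normal, with medians of -0.95, 0.78 and -0.08. Of 99 SNORA genes, 25 were lower (25.3%), 12 higher (12.1%) and 2 higher with 1 lower (2.02% and 1.01%, against 2.61% and 1.97%), with medians of -0.56, 0.54 and -0.13. For the 105 members here those medians were -0.31, 0.56 and 0.24. The 680 tested genes under 300 bases that are not members, with SNORD and SNORA genes of that length among them, had medians of -0.27, 0.38 and 0.06. The difference between these sets was not tested.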

How the data were processed

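RNA was sequenced from 9 libraries, and the authors deposited 1 StringTie table per library with TPM, FPKM and per-base coverage for each reference or assembled transcript of a shared annotation. Per the file headers StringTie 1.3.3b was run, and per the submitters' processing notes reads were demultiplexed with bcl2fastq and aligned with HISAT2 to rn6. Poly(A) selection, rRNA removal, strand and the placing of reads with several hits are not given in the sources used here, and the headers of the combination tables carry other sample names. The deposited values are these other measures and hold no read counts, so no count test was run.

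TPM was summed per gene name within a locus, giving 36869 genes, of which 29379 had a name. The members hold reference transcripts only. All other named genes, among them host, partner, SNORD and SNORA genes, also hold assembled transcripts of their locus. Their values are thus built differently from those of the members. Genes averaging at least 1 TPM over 9 libraries (14175) were fitted with limma 3.58.1 in R 4.3.3 on log2(TPM + 1), with 3 groups, an intensity trend and empirical Bayes moderation. Adjusted p is Benjamini-Hochberg over all 14175, threshold 0.05. Fold changes are on that log2 scale, which understates low genes. The fit was tested on simulated data. Groups came from the sample titles, and library 1, 2 and 3 follow their numbers. The median over 9 libraries of a tested member's per-base coverage ran from 1.005 to 147.9 (middle member 10.19), and low coverage limits precision.

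The members and lists were chosen with earlier results of these data known. Named were all called members, the 2 highest of each class, all tested SCARNA, minor spliceosomal, U7, U8 and 7SK members, host genes of called members, partner genes past the threshold (up to 4 a list, otherwise the smallest p), Cd3e, Cd4 and marker sums. Alternatives were other pseudocounts, filters, scalings, FPKM, 2 groups only, no trend, array weights, a replicate block, and leaving out each library.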

Additional observations from a re-analysis of the deposited data

How the results depend on the processing

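The fold changes of the 14 called members kept their sign in the comparisons where they were called, under every alternative that gave a value, while the counts of members past the threshold moved, and the counts over all genes (706, 633 and 649 in the 3 comparisons) moved too, given in brackets. In model against normal the count of 3 went to 1 when genes under a 5 TPM mean were left out (559), a filter that left only 1 of the 3 to test. It went to 1 with only the 2 groups compared (186), 14 with array weights (2994) and 5 with exon-sharing transcripts added, an alternative chosen after seeing the data (715). In combination against model the count of 6 went to 3 with a pseudocount of 0.1 (522) and to 2 under that 5 TPM filter (400), which left only 2 of the 6 to test. It went to 0 with only the 2 groups (24) and 12 when TPM was rescaled leaving out genes of haemoglobin, mitochondria and ribosomal proteins (1476). That rescaling brought 150 members to the test in place of 105. In combination against normal the count of 9 went to 14 with that rescaling (1315) and 21 with array weights (3995). Leaving out 1 library gave 0 to 7, 0 to 5 and 0 to 12 members. Without a filter 2, 4 and 11 members passed, of which 0, 0 and 1 were among those reported (86, 196 and 206). With the replicate number as a block, 0, 0 and 1 members passed (162, 9 and 81). In their deviations from the group means, same-numbered libraries correlated at -0.138 to 0.055 and differently numbered ones at -0.144 to 0.147. With 3 libraries a group, this check cannot settle whether the numbers pair the libraries, and the labels do not say. Without its highest member, the small Cajal body sum had a combination-to-normal log2 ratio of -0.059, the signal recognition particle sum a model-to-normal ratio of 0.407, and the Y RNA sum ratios of -3.609, 3.666 and 0.057 in the 3 comparisons. The same rescaling moved the median of all genes in combination against model to 0.131 and the share of calls that were higher from 53.9% to 66.7%. Median-ratio scaling made 44.7% of the calls higher there, and 91 of 105 members were positive there, against 92 without it. Tests of low members rest on few bases of coverage, and no interval based on read counts can be given, since the deposited values hold none. The cause of these shifts was not tested.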
